A study of Mus musculus with 18 samples.

Results

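The 38 genes described here are 17 genes of DNA replication and 21 genes of mitosis, out of 53379 genes counted by RNA sequencing. They were taken by symbol: Mcm2, Mcm3, Mcm4, Mcm5, Mcm6, Mcm7, Pcna, Rrm1, Rrm2, Tyms, Gins2, Cdc6, Cdt1, Cdc45, Uhrf1, Ccne1 and Ccne2 for replication, and Mki67, Top2a, Ccna2, Ccnb1, Ccnb2, Cdk1, Aurka, Aurkb, Bub1, Bub1b, Plk1, Cdc20, Cenpe, Cenpf, Kif11, Kif20a, Birc5, Tpx2, Ube2c, Nusap1 and Foxm1 for mitosis. All 38 were found and all passed the filter on low counts in every tissue. Genes scarce in BM livers could pass it through the BMT livers alone. These were Cdc6, Bub1, Bub1b, Plk1, Aurkb, Ccnb2, Cenpe, Cenpf, Kif11, Tpx2, Ube2c and Foxm1. All of them are among the liver calls given below. The mice were female BALB/cJ recipients, an inbred strain, 6 to 8 weeks old and lethally irradiated. BMT recipients received 10000000 bone marrow cells together with 1000000 T cells, and BM recipients received the same dose of marrow alone, so that irradiation and marrow are shared by both groups. The sources used here do not give the donor strain. On day 7, RNA was taken from bulk liver (code LIV) and from isolated epithelial cells of the intestine (codes SI and LI), with 3 libraries of each treatment per tissue and 18 in all. The descriptions repeat 6 numbers across the tissues, read here as 6 mice, although the labels do not say that the replicates are separate animals. The p-values cover no more than the spread between these libraries.

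The library codes and the sample titles of the intestinal sets disagree: libraries coded LI are titled small intestine and libraries coded SI are titled large intestine. Region markers went against the titles. All 8 small-intestine markers were higher in code SI than in code LI in BMT and in BM recipients, and all 8 large-intestine markers were lower in code SI in BM recipients, as were 7 of 8 in BMT recipients. The codes are used below, and no statement rests on the titles. In the livers the 6 hepatocyte markers summed to 120600 to 137100 CPM (counts scaled to the same library total) in BMT and 109200 to 171000 CPM in BM, and in both intestinal sets the 6 epithelial markers summed to 14640 CPM or more. Library totals ran from 18845483 to 25610937 counts, so that 3 counts, taken as the floor, were 0.117 to 0.159 CPM. The share of mitochondrial transcripts, 2.77 to 10.7%, separated the treatments within each tissue, with BMT libraries below BM libraries, and fits without these transcripts gave the same counts of calls for both classes in all 3 tissues. Because the samples are bulk tissue and cell fractions, a higher level of a gene in more cells, more cells of a type, and more RNA per cell cannot be told apart.

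Both gene classes serve the dividing cell, at different times. Cdc6 and Cdt1 load the Mcm helicase onto origins, Cdc45 and the GINS complex activate it, and E2F factors switch on many of these genes as cells enter S phase. Mitosis genes peak later: Cdk1 with its cyclins, the Aurora kinases and Plk1 drive chromosome condensation and spindle assembly, and many of their promoters carry a cell cycle homology region (CHR) and CCAAT boxes, bound by MuvB complexes with B-Myb or Foxm1 and by NF-Y. In the intestine, division is normally held in the crypts, while most hepatocytes of the adult liver are quiescent.

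The promoters were searched for these letters. RefSeq promoter windows of 300 bases (250 before and 50 after the start, build GRCm38.p6) were at hand for 30 of the 38 genes, 14 of replication and 16 of mitosis. Mcm7 and Uhrf1 had 2 windows each, which makes 16 promoters in each class. Ccne2, Mcm4, Gins2, Ccna2, Aurkb, Kif20a, Tpx2 and Foxm1 had none. The CHR letters TTTGAA or TTCGAA, on either strand, lay in 12 of 16 mitosis promoters (75%) and in 3 of 16 replication promoters (18.8%), beside 19.2% of all 32851 promoters of this length. CCAAT, on either strand, was held by 14 of 16 mitosis promoters (87.5%) and 12 of 16 replication promoters (75%), beside 37.4% of all. E2F letters (GGCGGGAA, GGCGCGAA or TTTCGCGC on either strand, of which the last 2 can overlap) were held by 1 of 16 mitosis promoters (6.25%), that of Cdk1, and by 7 of 16 replication promoters (43.8%), beside 2.87% of all. In the mitosis promoters the CHR letters began at a median of 23 bases before the start and CCAAT at a median of 80 bases before it. Such a match is a description of the letters and not a binding site. The following 3 mitosis promoters are shown because they hold CHR letters near the start and CCAAT boxes upstream, both in capitals.
Ccnb2 (chr9:70421505-70421804, minus strand): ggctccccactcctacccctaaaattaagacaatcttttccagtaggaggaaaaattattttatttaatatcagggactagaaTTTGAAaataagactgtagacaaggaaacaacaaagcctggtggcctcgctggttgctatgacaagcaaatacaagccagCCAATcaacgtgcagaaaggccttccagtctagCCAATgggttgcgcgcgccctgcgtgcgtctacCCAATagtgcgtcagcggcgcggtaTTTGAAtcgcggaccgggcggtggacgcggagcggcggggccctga
Ube2c (chr2:164769679-164769978, plus strand): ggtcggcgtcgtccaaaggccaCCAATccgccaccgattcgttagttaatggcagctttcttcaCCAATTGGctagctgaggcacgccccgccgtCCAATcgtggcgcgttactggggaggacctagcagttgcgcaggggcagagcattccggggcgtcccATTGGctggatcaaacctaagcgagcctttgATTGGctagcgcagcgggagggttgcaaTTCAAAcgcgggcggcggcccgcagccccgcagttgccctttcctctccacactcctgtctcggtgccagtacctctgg
Bub1b (chr2:118597961-118598260, plus strand): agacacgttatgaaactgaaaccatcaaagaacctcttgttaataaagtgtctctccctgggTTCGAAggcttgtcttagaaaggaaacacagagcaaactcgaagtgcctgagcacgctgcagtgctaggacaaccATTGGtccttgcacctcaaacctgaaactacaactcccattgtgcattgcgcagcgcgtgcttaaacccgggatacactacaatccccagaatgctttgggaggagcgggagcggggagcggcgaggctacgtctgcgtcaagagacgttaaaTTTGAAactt
The promoters of 3 Mcm genes are shown for contrast, with E2F letters and CCAAT boxes in capitals. None of these holds CHR letters, but other replication promoters do. Mcm2 holds CHR letters and no E2F letters, Mcm7 holds CHR letters in 1 of its 2 windows, and Cdc45 holds them too. The mitosis promoters without CHR letters are those of Birc5, Ccnb1, Cenpe and Nusap1.
Mcm3 (chr1:20820263-20820562, minus strand): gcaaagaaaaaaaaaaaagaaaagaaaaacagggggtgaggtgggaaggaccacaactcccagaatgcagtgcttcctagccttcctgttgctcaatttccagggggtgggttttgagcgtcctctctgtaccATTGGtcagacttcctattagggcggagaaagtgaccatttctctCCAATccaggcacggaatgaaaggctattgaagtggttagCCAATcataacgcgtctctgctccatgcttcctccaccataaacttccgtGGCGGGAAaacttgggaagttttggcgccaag
Mcm5 (chr8:75109259-75109558, plus strand): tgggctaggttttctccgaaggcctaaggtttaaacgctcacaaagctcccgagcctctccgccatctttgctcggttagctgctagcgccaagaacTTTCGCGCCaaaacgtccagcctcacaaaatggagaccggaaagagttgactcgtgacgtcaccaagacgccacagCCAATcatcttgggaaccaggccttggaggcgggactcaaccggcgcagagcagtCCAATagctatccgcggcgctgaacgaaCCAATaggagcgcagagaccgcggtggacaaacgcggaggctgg
Mcm6 (chr1:128359656-128359955, minus strand): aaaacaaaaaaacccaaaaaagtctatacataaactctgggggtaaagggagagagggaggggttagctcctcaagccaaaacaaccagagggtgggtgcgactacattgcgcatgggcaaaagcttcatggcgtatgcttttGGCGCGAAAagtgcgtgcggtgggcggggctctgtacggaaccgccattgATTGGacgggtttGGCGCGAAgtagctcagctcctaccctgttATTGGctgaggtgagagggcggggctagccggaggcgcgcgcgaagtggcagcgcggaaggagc

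All 38 genes had at least 1 count in every library, although Bub1 with 1 count in BM liver replicate 3 and Plk1 with 2 counts in BM liver replicate 2 lay under the floor of 3 counts. For all 38 every liver lay below every intestinal library in CPM. Per kilobase of exon, Pcna was highest and Cenpf lowest of the 38 in the livers, at 6.94 and 0.0948 CPM per kilobase in BMT and at 9.04 and 0.0355 in BM, and in code SI, at 79.04 and 1.67 in BMT and at 66.9 and 1.02 in BM. Averaged over the 17 replication genes, log2(CPM + 1) was 2.45 ± 0.060 in BMT livers and 2.06 ± 0.12 in BM livers (SD, n = 3 each), against 6.19 ± 0.46 in BMT and 5.93 ± 0.092 in BM recipients for code SI and 6.16 ± 0.26 in BMT and 5.04 ± 0.13 in BM recipients for code LI. For the 21 mitosis genes the means were 1.92 ± 0.17 in BMT livers and 0.861 ± 0.099 in BM livers, 6.25 ± 0.39 in BMT and 5.61 ± 0.12 in BM recipients for code SI, and 6.04 ± 0.36 in BMT and 5.17 ± 0.19 in BM recipients for code LI. Every BMT library lay above every BM library of its tissue in the mitosis mean. For replication this held in LIV and LI, while in SI the lowest BMT library, at 5.66, lay below all BM libraries. The mitosis mean minus the replication mean was higher in BMT than in BM libraries in LIV (-0.68 to -0.42 in BMT against -1.27 to -1.14 in BM) and in SI (-0.14 to 0.19 in BMT against -0.44 to -0.21 in BM). It was lower in BMT in LI, at -0.25 to -0.021 in BMT against 0.039 to 0.22 in BM. No p is given for these means, since the genes were chosen with earlier results of these data known. Among the single libraries, BMT replicate 3, which carries the same number in every tissue, was the lowest of the 3 BMT libraries for 16 of 17 replication genes and 15 of 21 mitosis genes in SI, and for 17 of 17 and 21 of 21 in LI. In LIV it was lowest for 7 of 17 and 16 of 21.

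**Figure D1:**
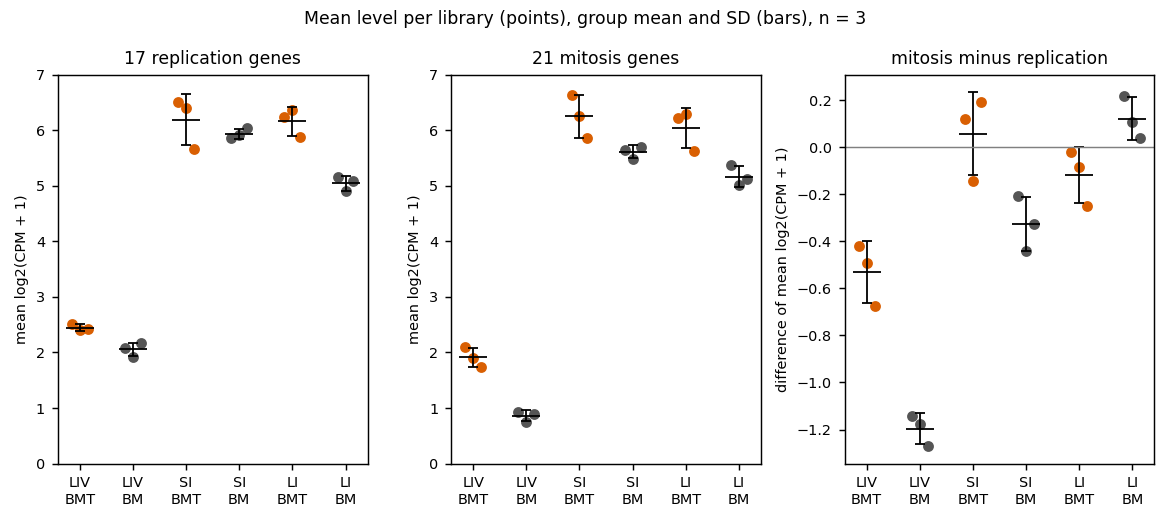
Mean log2(CPM + 1) over the 17 replication genes and the 21 mitosis genes and the difference of both means, for each library by tissue code and treatment, with points for libraries and bars for the group mean and SD (n = 3). The mitosis mean separated BMT from BM in every tissue, and the difference of means was higher in BMT in LIV and SI and lower in BMT in LI.

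In the liver 18 mitosis genes and 5 replication genes rose in BMT recipients, while 12 replication genes did not pass the test. Of 21 mitosis genes 18 were called higher and 0 lower, with a median log2 fold change of 2.12. Of 17 replication genes 5 were called higher (Mcm5, Mcm6, Rrm2, Cdc6 and Uhrf1) and 0 lower, with a median of 0.59. Calls were made with edgeR's quasi-likelihood test at a Benjamini-Hochberg adjusted p under 0.05 over all 14134 genes tested, of which 7.46% were called higher and 3.35% lower and whose median was -0.022. All 3 BMT livers lay above all 3 BM livers for 21 of 21 mitosis genes and 8 of 17 replication genes, beside 11.2% of all genes. These counts, the calls and the medians include the genes named above that could pass the filter through the BMT livers alone. Many of the called mitosis genes are among them. For 2 replication genes, Pcna and Tyms, all BMT livers lay below all BM livers, beside 28.0% of all genes.

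Of the helicase and origin genes, Mcm5, Mcm6 and Cdc6 passed the test. Mcm6, a subunit of the Mcm helicase, had 6.89, 6.28 and 5.14 CPM in BMT livers, against 2.31, 1.68 and 1.72 CPM in BM livers. The groups did not overlap (log2 fold change 1.86 ± 0.25, edgeR adjusted p = 0.00523). Mcm5, from the same ring, had 5.75, 5.79 and 6.75 CPM in BMT livers, against 3.48, 2.55 and 4.33 CPM in BM livers (log2 fold change 1.00 ± 0.21, edgeR adjusted p = 0.0223). With library totals as the only scaling its log2 fold change was 0.82 and the call was lost. Mcm2 had 5.42, 5.06 and 5.99 CPM in BMT livers, against 3.98, 2.91 and 5.08 CPM in BM livers, and its groups overlapped (log2 fold change 0.65 ± 0.21, edgeR adjusted p = 0.101). The other members of the ring did not pass the test, with log2 fold changes of 0.48 ± 0.18 for Mcm3, 0.59 ± 0.21 for Mcm4 and 0.32 ± 0.22 for Mcm7. The loader Cdc6 was low, with 1.14, 0.648 and 0.755 CPM in BMT livers, against 0.226, 0.227 and 0.373 CPM in BM livers (log2 fold change 1.80 ± 0.41, edgeR adjusted p = 0.0319), while its partner Cdt1 had a log2 fold change of 0.30 ± 0.35. Gins2, of the GINS complex, had the lowest fold change of the class. It was measured at 0.571, 0.648 and 0.896 CPM in BMT livers, against 0.724, 0.591 and 1.58 CPM in BM livers, where BM replicate 3 alone stood above all other livers (log2 fold change -0.27 ± 0.41, edgeR adjusted p = 0.723). Cdc45 stood at 0.55 ± 0.31 on the log2 scale without a call.

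Of the other replication genes, Rrm2 and Uhrf1 passed the test. Rrm2, the regulated small subunit of ribonucleotide reductase, had 5.30, 5.39 and 5.09 CPM in BMT livers, against 1.45, 1.86 and 1.63 CPM in BM livers. The BMT livers spanned a narrow range well above all BM livers (log2 fold change 1.85 ± 0.21, edgeR adjusted p = 0.00277). Rrm1, the large subunit, had a log2 fold change of 0.39 ± 0.18 and no call. Tyms, which makes thymidylate, had 5.58, 6.04 and 6.84 CPM in BMT livers, against 8.96, 7.59 and 7.83 CPM in BM livers (log2 fold change -0.23 ± 0.16, edgeR adjusted p = 0.41). Pcna, the sliding clamp of the replicative polymerases, had 17.9, 15.0 and 17.03 CPM in BMT livers, against 24.6, 19.9 and 20.6 CPM in BM livers (log2 fold change -0.21 ± 0.16, edgeR adjusted p = 0.471). For both genes every BMT liver was below every BM liver in CPM, and neither passed the test. Uhrf1, which guides maintenance methylation to newly copied DNA, had 4.32, 2.96 and 2.36 CPM in BMT livers, against 1.13, 0.955 and 1.30 CPM in BM livers without overlap (log2 fold change 1.70 ± 0.32, edgeR adjusted p = 0.0159). Of the cyclins E, which pair with Cdk2 at the start of S phase, Ccne1 had 4.89, 3.28 and 4.53 CPM in BMT livers, against 1.13, 2.96 and 2.66 CPM in BM livers (log2 fold change 1.10 ± 0.36, edgeR adjusted p = 0.0925). Ccne2 had 2.32, 1.86 and 2.69 CPM in BMT livers, against 1.04, 1.55 and 1.91 CPM in BM livers, with BMT replicate 2 just below BM replicate 3 (log2 fold change 0.80 ± 0.28, edgeR adjusted p = 0.116).

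The mitosis genes were scarce in BM livers, and 18 of the 21 rose. Mki67, a coat protein of mitotic chromosomes used as a marker of dividing cells, had 19.0, 15.0 and 14.0 CPM in BMT livers, against 2.76, 2.23 and 3.54 CPM in BM livers, which is a 6.43-fold rise (log2 fold change 2.69 ± 0.23, edgeR adjusted p = 0.00153). Top2a, which untangles sister chromatids, had 13.04, 9.28 and 10.5 CPM in BMT livers, against 2.49, 2.46 and 2.80 CPM in BM livers (log2 fold change 2.27 ± 0.21, edgeR adjusted p = 0.00174). The lowest BMT liver was over 3 times the highest BM liver for both. Bub1b, a spindle checkpoint protein, had the largest fold change of all 38 genes, with 2.89, 2.51 and 1.98 CPM in BMT livers, against 0.272, 0.318 and 0.466 CPM in BM livers (log2 fold change 2.98 ± 0.33, edgeR adjusted p = 0.00266). Of the engine of mitosis, Cdk1 had 3.06, 2.71 and 2.41 CPM in BMT livers, against 0.815, 0.909 and 0.839 CPM in BM livers (log2 fold change 1.85 ± 0.26, edgeR adjusted p = 0.00559). Its partner Ccna2 had 4.36, 3.60 and 3.68 CPM in BMT livers, against 1.09, 0.864 and 1.26 CPM in BM livers (log2 fold change 2.04 ± 0.25, edgeR adjusted p = 0.00326). Ccnb1, the mitotic cyclin B, had 2.98, 2.43 and 1.46 CPM in BMT livers, against 0.996, 0.500 and 0.792 CPM in BM livers, with the lowest BMT liver above the highest BM liver (log2 fold change 1.78 ± 0.40, edgeR adjusted p = 0.0302). Foxm1, the transcription factor of many of these genes, had 1.75, 2.47 and 1.604 CPM in BMT livers, against 0.226, 0.455 and 0.839 CPM in BM livers, and its groups did not overlap either (log2 fold change 2.13 ± 0.42, edgeR adjusted p = 0.0183). Aurka, the kinase of the spindle poles, had the smallest fold change of the class and no call, with 5.50, 4.82 and 3.73 CPM in BMT livers, against 3.62, 2.41 and 2.28 CPM in BM livers (log2 fold change 0.93 ± 0.29, edgeR adjusted p = 0.0868). Cdc20 and Kif20a, at 1.39 ± 0.45 and 1.05 ± 0.46 on the log2 scale, were the other 2 without a call, and the remaining 11 called genes had log2 fold changes of 1.57 (Cenpf) to 2.61 (Bub1). Depth limits these values, since Bub1 had 25, 24 and 17 counts in BMT livers and 7, 3 and 1 counts in BM livers. In BM livers Bub1b, with the largest fold change, had only 6, 7 and 10 counts, and Plk1 had 8, 2 and 6.

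The calls in the liver rested on small groups. Leaving out a library gave 7 to 19 mitosis calls and 2 to 6 replication calls, with 10 and 2 without BM replicate 2, 9 and 2 without BMT replicate 1, 7 and 2 without BMT replicate 2, and 15 and 3 without BMT replicate 3. Mcm6, Rrm2, Birc5, Bub1b, Ccna2, Cdk1, Mki67, Top2a and Tpx2 were called in each of these 6 fits. With only the livers of lane 2, which leaves out BM replicate 3 and BMT replicate 2, 11 mitosis and 3 replication genes were called, and the calls of Uhrf1 and Ccnb1 were lost. With library totals as the only scaling the median of all liver genes shifted to -0.20, the split of calls over all genes changed to 812 higher and 1183 lower from 1055 higher and 473 lower, and 18 mitosis and 4 replication genes were called higher. Markers of some other cells differed as well, in both directions. The 12 T cell markers summed to 63.7 to 66.9 CPM in BMT livers and 5.97 to 8.81 CPM in BM livers, and 11 of 11 tested were higher. The 8 neutrophil precursor markers summed to 59.6 to 251 CPM in BMT livers and 3.46 to 4.03 CPM in BM livers, where Ms4a3 was at 0, and 7 of 7 tested were higher. The 7 erythroid markers found summed to 9.33 to 33.0 CPM in BMT livers and 75.3 to 100.5 CPM in BM livers, and 3 of 5 tested were lower. Of the macrophage markers tested 1 of 6 was higher, of the endothelial 1 of 5, of the stromal 2 of 5 and of the B and plasma cell markers 0 of 1. In these 4 sets 0 were lower. The part of all these cells in the levels of the 38 genes was not tested.

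**Figure D2:**
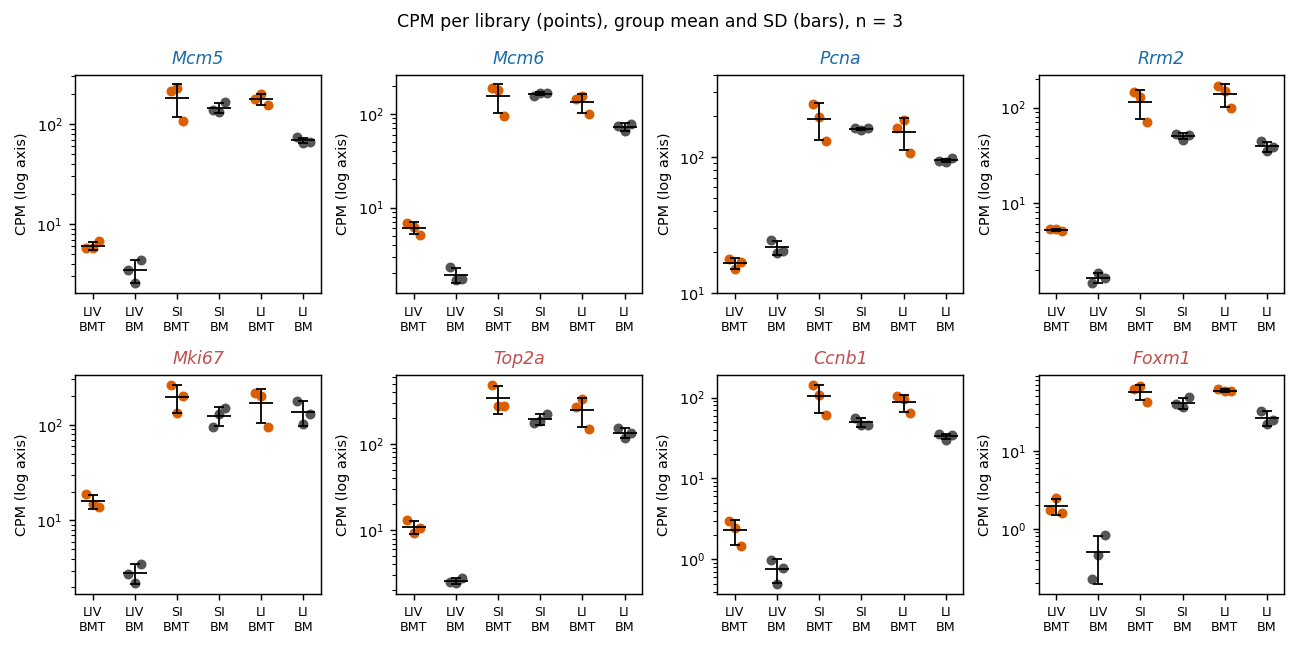
CPM on a log axis of 4 replication genes (blue names) and 4 mitosis genes (red names) in each library by tissue code and treatment, with bars for the group mean and SD (n = 3). In the liver Mki67 ran from 14.0 to 19.0 CPM in BMT and from 2.23 to 3.54 CPM in BM. The BMT livers lay below the BM livers for Pcna, which was not called, as they did for 28.0% of all genes.

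In the epithelium of code SI 12 of 21 mitosis genes rose, while few replication genes were called. Of 21 mitosis genes 12 were called higher (Top2a, Ccna2, Ccnb1, Aurka, Bub1, Plk1, Cdc20, Cenpe, Kif11, Kif20a, Tpx2 and Ube2c) and 0 lower, with a median log2 fold change of 0.74. Of 17 replication genes 3 were called higher (Rrm1, Rrm2 and Ccne1) and 0 lower, with a median of 0.29. Over all 14621 genes tested 11.6% were called higher and 11.8% lower, with a median of 0.023. All BMT libraries lay above all BM libraries for 10 of 21 mitosis and 2 of 17 replication genes, beside 16.3% of all genes. For replication, this count and that of the higher calls lay near the shares of all genes. The 6 crypt markers were Lgr5, Ascl2, Olfm4, Smoc2, Axin2 and Sox9, which do not stand for all dividing cells of the crypt. In this tissue they summed to 475 to 497 CPM in BMT recipients and 1373 to 1615 CPM in BM recipients, and 5 of 6 were lower. The 8 small-intestine markers summed to 8051 to 14930 CPM in BMT recipients and 18070 to 22580 CPM in BM recipients, with 3 lower and 3 higher. The 6 epithelial markers summed to 18400 to 19830 CPM in BMT recipients and 14810 to 16530 CPM in BM recipients, with 2 higher and 0 lower. The 12 T cell markers summed to 171 to 261 CPM in BMT recipients and 4.16 to 12.7 CPM in BM recipients, where Cd28 was at 0, and 12 of 12 were higher. The part of these cells in the levels of the 38 genes was not tested.

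The helicase was at a high level in both groups of code SI. Mcm2 had 135, 138 and 78.1 CPM in BMT recipients, against 91.2, 110.0 and 117 CPM in BM recipients (log2 fold change 0.19 ± 0.20, edgeR adjusted p = 0.535). Mcm5 had 215, 228 and 108 CPM in BMT recipients, against 139, 133 and 167 CPM in BM recipients (log2 fold change 0.36 ± 0.23, edgeR adjusted p = 0.289). For both genes BMT replicates 1 and 2 were above all BM recipients and BMT replicate 3 was below them. For Pcna too, BMT replicates 1 and 2 were above all BM recipients and BMT replicate 3 was below them, with 244, 194 and 131 CPM in BMT recipients, against 163, 157 and 162 CPM in BM recipients (log2 fold change 0.28 ± 0.19, edgeR adjusted p = 0.331). Cdc6 had the lowest fold change of the class, with 26.9, 27.5 and 17.3 CPM in BMT recipients, against 21.1, 26.7 and 29.1 CPM in BM recipients (log2 fold change -0.058 ± 0.20, edgeR adjusted p = 0.863). Both subunits of ribonucleotide reductase were called. Rrm2 had 147, 128 and 70.9 CPM in BMT recipients, against 53.5, 46.0 and 51.4 CPM in BM recipients, without overlap (log2 fold change 1.23 ± 0.22, edgeR adjusted p = 0.0027). Rrm1 had 213, 187 and 111 CPM in BMT recipients, against 114, 114 and 117 CPM in BM recipients, with BMT replicate 3 below the BM recipients (log2 fold change 0.60 ± 0.20, edgeR adjusted p = 0.0493). Ccne1 had 34.6, 38.9 and 23.7 CPM in BMT recipients, against 18.6, 22.0 and 22.4 CPM in BM recipients, without overlap (log2 fold change 0.67 ± 0.19, edgeR adjusted p = 0.0254). Ccne2 had 21.1, 9.14 and 13.9 CPM in BMT recipients, against 9.50, 10.4 and 10.4 CPM in BM recipients (log2 fold change 0.59 ± 0.27, edgeR adjusted p = 0.143). The remaining replication genes had log2 fold changes from -0.051 (Mcm6) to 0.65 (Gins2).

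Among the mitosis genes of code SI, Ccnb1 had the largest fold change, with 141, 109 and 61.5 CPM in BMT recipients, against 56.7, 45.3 and 46.1 CPM in BM recipients (log2 fold change 1.10 ± 0.25, edgeR adjusted p = 0.00862). Its lowest BMT library was above the highest BM library. Cenpe, the kinesin that links kinetochores to microtubules, had 49.1, 22.3 and 32.4 CPM in BMT recipients, against 14.3, 17.2 and 19.0 CPM in BM recipients (log2 fold change 1.09 ± 0.26, edgeR adjusted p = 0.011). Tpx2, which activates Aurka on the spindle, had 100.4, 79.2 and 56.4 CPM in BMT recipients, against 45.3, 40.9 and 46.5 CPM in BM recipients (log2 fold change 0.87 ± 0.19, edgeR adjusted p = 0.0077). Ccna2 had 206, 163 and 108 CPM in BMT recipients, against 98.3, 82.0 and 95.1 CPM in BM recipients (log2 fold change 0.83 ± 0.20, edgeR adjusted p = 0.0138). Top2a had 488, 275 and 278 CPM in BMT recipients, against 174, 185 and 224 CPM in BM recipients, and no BMT library overlapped the BM recipients (log2 fold change 0.88 ± 0.22, edgeR adjusted p = 0.0138). Mki67 had 260.5, 131 and 199 CPM in BMT recipients, against 95.3, 128 and 150.5 CPM in BM recipients, with BMT replicate 2 inside the range of BM (log2 fold change 0.71 ± 0.24, edgeR adjusted p = 0.0527). Cdk1 had 129, 126 and 67.9 CPM in BMT recipients, against 92.3, 59.8 and 71.1 CPM in BM recipients, with BMT replicate 3 inside the range of BM (log2 fold change 0.56 ± 0.24, edgeR adjusted p = 0.119). Foxm1 had 61.5, 67.5 and 42.7 CPM in BMT recipients, against 39.3, 36.0 and 48.8 CPM in BM recipients and no call (log2 fold change 0.51 ± 0.19, edgeR adjusted p = 0.0738). Aurkb, the kinase of the chromosomal passenger complex, had the smallest fold change, with 51.9, 63.5 and 34.2 CPM in BMT recipients, against 43.5, 34.7 and 41.4 CPM in BM recipients (log2 fold change 0.36 ± 0.21, edgeR adjusted p = 0.245). The 7 other called genes had log2 fold changes of 0.57 (Plk1) to 0.96 (Kif11). The other 5 without a call were Ccnb2, Bub1b, Cenpf, Birc5 and Nusap1, with log2 fold changes of 0.42 (Nusap1) to 0.75 (Cenpf).

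Counts of calls in code SI depended on which library was left out. They ran from 3 to 18 for mitosis and from 1 to 9 for replication, with 18 and 9 without BMT replicate 3. Without BM replicate 1 they were 7 and 1, without BM replicate 2 they were 3 and 1, without BM replicate 3 they were 8 and 1, and without BMT replicate 1 they were 5 and 1. Rrm2, Ccnb1 and Tpx2 were called in each of these 6 fits. With only the libraries of lane 2, which leaves out BMT replicate 2, 9 mitosis and 2 replication genes were called. The calls of Rrm1 and Ccne1, with adjusted p-values of 0.0493 and 0.0254 over all libraries, were lost there.

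In the epithelium of code LI both classes rose. All 17 replication genes were called higher, with a median log2 fold change of 1.25, and 16 of 21 mitosis genes were called higher, with a median of 1.07; none was called lower. Over all 14880 genes tested 20.4% were called higher and 21% lower, with a median of 0.0020. All BMT libraries lay above all BM libraries for 16 of 17 replication genes and 15 of 21 mitosis genes, beside 25.2% of all genes. Leaving out any library left 15 to 17 replication and 16 to 20 mitosis calls, with the highest counts of both without BMT replicate 3, which is also the library left out when only lane 2 is used. The 12 T cell markers summed to 348 to 536 CPM in BMT recipients and 6.52 to 8.71 CPM in BM recipients, where Cd5 and Cd28 were at 0, and 12 of 12 were higher. The 6 crypt markers summed to 66.9 to 113 CPM in BMT recipients and 108 to 109 CPM in BM recipients, with 3 lower and 1 higher. The 8 large-intestine markers summed to 5661 to 8786 CPM in BMT recipients and 12670 to 13810 CPM in BM recipients, with 5 lower and 1 higher. The 8 small-intestine markers summed to 732 to 869 CPM in BMT recipients and 1099 to 1173 CPM in BM recipients, with 4 lower and 1 higher. The 6 epithelial markers summed to 19660 to 24730 CPM in BMT recipients and 14640 to 16880 CPM in BM recipients, with 3 higher and 0 lower. The 6 macrophage markers summed to 6.58 to 16.7 CPM in BMT recipients and 1.03 to 1.76 CPM in BM recipients, and both that were tested were higher. The part of these cells in the levels of the 38 genes was not tested.

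Each of the 17 replication members was called higher in code LI. Rrm2 had the largest fold change, with 168, 151 and 98.2 CPM in BMT recipients, against 44.3, 35.1 and 38.4 CPM in BM recipients, a 3.54-fold rise (log2 fold change 1.82 ± 0.18, edgeR adjusted p = 2.16e-05). Rrm1 had 174, 188 and 144 CPM in BMT recipients, against 70.7, 58.7 and 73.5 CPM in BM recipients (log2 fold change 1.33 ± 0.13, edgeR adjusted p = 2.84e-05). For both subunits the lowest BMT library was above the highest BM library. Mcm5 had 178, 199 and 156 CPM in BMT recipients, against 74.1, 65.5 and 66.7 CPM in BM recipients, without overlap (log2 fold change 1.38 ± 0.12, edgeR adjusted p = 1.19e-05). Mcm2 had 104, 129.5 and 89.7 CPM in BMT recipients, against 52.4, 46.0 and 49.1 CPM in BM recipients (log2 fold change 1.14 ± 0.14, edgeR adjusted p = 9.68e-05), and the other Mcm genes rose with log2 fold changes of 0.88 (Mcm6) to 1.34 (Mcm3). Ccne1 had 35.3, 34.2 and 33.8 CPM in BMT recipients, against 10.3, 7.81 and 12.5 CPM in BM recipients, with BMT libraries close together (log2 fold change 1.76 ± 0.18, edgeR adjusted p = 3.32e-05). Ccne2 had 11.8, 15.3 and 6.20 CPM in BMT recipients, against 7.08, 5.34 and 6.40 CPM in BM recipients, and BMT replicate 3 lay within the range of BM (log2 fold change 0.81 ± 0.27, edgeR adjusted p = 0.0342). With library totals as the only scaling, at a log2 fold change of 0.82, and with a block on the title numbers, at 0.75, this call was lost. Pcna had 164, 184 and 107 CPM in BMT recipients, against 92.9, 92.2 and 97.4 CPM in BM recipients, without overlap (log2 fold change 0.68 ± 0.16, edgeR adjusted p = 0.00701). Tyms had the smallest fold change of the class, with 51.0, 58.7 and 47.7 CPM in BMT recipients, against 39.4, 38.1 and 43.1 CPM in BM recipients (log2 fold change 0.39 ± 0.12, edgeR adjusted p = 0.0282), and its call was lost with a block on the title numbers at an unchanged 0.39. The loaders Cdc6 and Cdt1, with Cdc45, Gins2 and Uhrf1, had log2 fold changes of 1.10 (Cdt1) to 1.35 (Cdc6).

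In code LI 16 mitosis genes rose and 5 did not pass the test. Aurka had 72.4, 72.7 and 60.8 CPM in BMT recipients, against 30.3, 24.6 and 26.4 CPM in BM recipients (log2 fold change 1.35 ± 0.13, edgeR adjusted p = 1.98e-05). Cdc20, the activator of the anaphase-promoting complex, had 114, 133 and 108 CPM in BMT recipients, against 54.5, 46.1 and 42.3 CPM in BM recipients (log2 fold change 1.32 ± 0.13, edgeR adjusted p = 2.91e-05). Ube2c, which hands ubiquitin to that complex, had 92.5, 104 and 86.2 CPM in BMT recipients, against 45.6, 38.8 and 36.4 CPM in BM recipients (log2 fold change 1.24 ± 0.13, edgeR adjusted p = 3.56e-05). For each of them the groups did not overlap. Birc5, a subunit of the chromosomal passenger complex, had 76.6, 83.0 and 60.5 CPM in BMT recipients, against 36.2, 30.0 and 30.7 CPM in BM recipients (log2 fold change 1.19 ± 0.14, edgeR adjusted p = 7.11e-05). Ccnb1 had the largest fold change of the class, with 103, 95.6 and 63.8 CPM in BMT recipients, against 35.0, 30.1 and 34.2 CPM in BM recipients (log2 fold change 1.40 ± 0.16, edgeR adjusted p = 7.08e-05). Cdk1 had 93.6, 107 and 67.8 CPM in BMT recipients, against 45.4, 39.8 and 42.6 CPM in BM recipients (log2 fold change 1.07 ± 0.15, edgeR adjusted p = 0.00026). Foxm1 had 61.4, 57.99 and 57.8 CPM in BMT recipients, against 32.8, 22.2 and 24.8 CPM in BM recipients, again without overlap (log2 fold change 1.17 ± 0.15, edgeR adjusted p = 0.000191). Top2a had 272, 329.7 and 148 CPM in BMT recipients, against 154, 117 and 134 CPM in BM recipients, and BMT replicate 3 lay within the range of BM (log2 fold change 0.88 ± 0.23, edgeR adjusted p = 0.00992). The 8 other called genes had log2 fold changes of 0.69 (Plk1) to 1.19 (Aurkb).

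Mki67, in contrast to its rise in the liver, had 213, 199 and 94.97 CPM in BMT recipients, against 179, 103 and 128 CPM in BM recipients in code LI. BMT replicate 3 was below all BM recipients (log2 fold change 0.30 ± 0.26, edgeR adjusted p = 0.388). Cenpf, a kinetochore protein, had the smallest fold change of the class, with 26.1, 23.7 and 9.01 CPM in BMT recipients, against 23.8, 12.3 and 14.3 CPM in BM recipients (log2 fold change 0.22 ± 0.34, edgeR adjusted p = 0.636). The other 3 without a call were Cenpe, Kif11 and Nusap1, at 0.44 ± 0.26, 0.60 ± 0.24 and 0.35 ± 0.21 on the log2 scale. Cenpf, Mki67 and Cenpe are long genes, with 15433, 10061 and 8620 exonic bases, while Kif11 has 4819 and Nusap1 has 4059. The other members over 8000 bases, Rrm1 with 11012 and Top2a with 9013, were both called higher in code LI. As a measure of length, the log2(CPM + 1) of each gene with a mean of at least 5 CPM was centred over the 6 libraries of a tissue, and the median of genes under 3000 bases was taken from that of genes over 8000 bases. For code LI it was 0.029, -0.092 and -0.35 in BMT libraries and 0.19, 0.0010 and 0.20 in BM libraries, so that it was lowest in BMT replicate 3. Without that library Mki67 was called, with a log2 fold change of 0.57. The measure varied between libraries of the other tissues as well. For code SI it was 0.018, -0.213 and 0.175 in BMT libraries and -0.281, 0.148 and 0.129 in BM libraries. For LIV it was 0.065, 0.101 and 0.035 in BMT libraries and 0.062, -0.027 and -0.227 in BM libraries. The part of length in the results of any tissue was not tested.

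**Figure D3:**
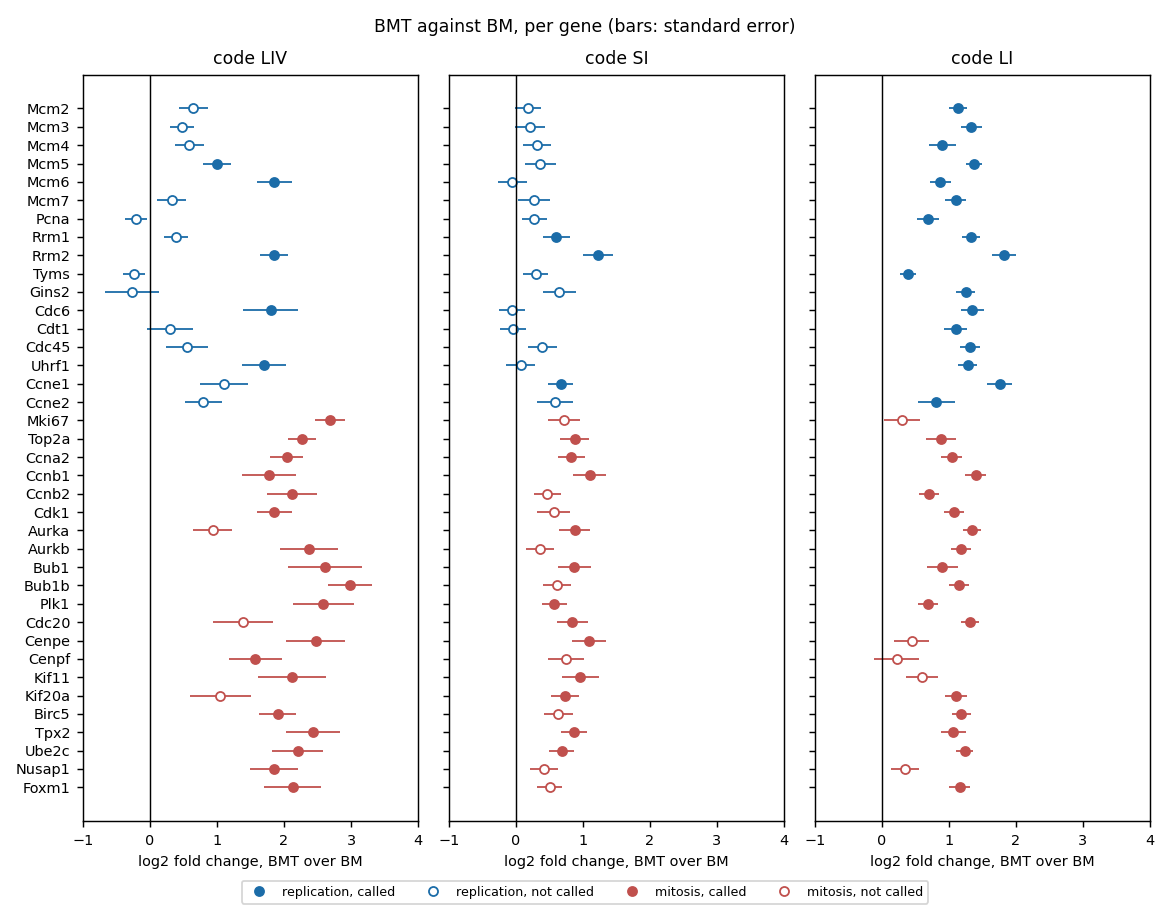
Log2 fold change of BMT over BM with its standard error for each of the 38 genes in LIV, SI and LI, with filled points for genes called at an edgeR adjusted p under 0.05. Mitosis genes lie furthest right in LIV, at a median of 2.12, and the replication genes in LI, at a median of 1.25.

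Across the tissues, 1 replication gene, Rrm2, and 7 mitosis genes (Bub1, Ccna2, Ccnb1, Plk1, Top2a, Tpx2 and Ube2c) were called higher in all of LIV, SI and LI, beside 2.6% of the 12158 genes tested in all 3. The difference of the BMT effect between tissues was tested in 1 edgeR model over all 18 libraries, with the mouse as a block. Positive values mean a higher BMT effect in the tissue named first, and these comparisons share libraries. Between LIV and SI the effect was higher in LIV for 14 mitosis genes and 3 replication genes (Mcm6, Cdc6 and Uhrf1) and lower for 0, beside 8.67% higher and 6.32% lower of 17275 genes tested. It was 2.40 ± 0.27, edgeR adjusted p = 6.98e-05 for Bub1b, 1.25 ± 0.21, edgeR adjusted p = 0.00147 for Ccna2, 1.95 ± 0.23, edgeR adjusted p = 8.93e-05 for Mcm6 and 1.64 ± 0.28, edgeR adjusted p = 0.00161 for Uhrf1. The 3 replication genes were called in every fit that left out a mouse, and so were 13 of the 14 mitosis genes.

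Between LIV and LI the called genes of the classes differed in direction, apart from Mcm6. The BMT effect was higher in LIV for 14 mitosis genes and 1 replication gene, Mcm6, beside 10.6% of all genes, and lower in LIV for 5 replication genes (Mcm3, Mcm7, Pcna, Rrm1 and Gins2) and 0 mitosis genes, beside 8.13% of all genes. It was 2.43 ± 0.38, edgeR adjusted p = 0.000538 for Mki67, 1.85 ± 0.27, edgeR adjusted p = 0.000297 for Bub1b, 1.52 ± 0.30, edgeR adjusted p = 0.00292 for Nusap1 and 1.43 ± 0.29, edgeR adjusted p = 0.00331 for Ccnb2. Pcna stood at -0.83 ± 0.22, edgeR adjusted p = 0.019 and Rrm1 at -0.91 ± 0.23, edgeR adjusted p = 0.0117. The 5 lower calls were the less steady: 1 was made without BM replicate 1, 1 without BM replicate 2, 3 without BM replicate 3, 2 without BMT replicate 1, 0 without BMT replicate 2 and 3 without the mouse block. The higher mitosis calls numbered 8 without BM replicate 2 and 9 without BMT replicate 1.

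Between SI and LI the BMT effect was lower in SI for 9 replication genes (Mcm2, Mcm3, Mcm5, Mcm6, Mcm7, Cdc6, Cdt1, Cdc45 and Uhrf1) and for 0 mitosis genes, of which 6 had an unadjusted p under 0.05. No member was higher in SI. Over all genes 2.4% were higher and 2.51% lower. It was -1.40 ± 0.25, edgeR adjusted p = 0.00534 for Cdc6, -1.22 ± 0.24, edgeR adjusted p = 0.00836 for Uhrf1, -1.14 ± 0.23, edgeR adjusted p = 0.0114 for Mcm3 and -0.93 ± 0.20, edgeR adjusted p = 0.0159 for Mcm6. All 17 replication genes had a negative difference, with a median of -0.91, against -0.21 for mitosis. The 9 calls became 5 without BM replicate 1, 0 without BM replicate 2, 4 without BM replicate 3, 3 without BMT replicate 1, 3 without BMT replicate 3 and 6 without the mouse block.

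The same model gave the level in SI relative to LI within each treatment, which uses the libraries of the comparison above. In BMT recipients 0 of 38 genes differed between SI and LI by edgeR, with 5 at an unadjusted p under 0.05, beside 9.64% of all genes higher and 12.3% lower; without BMT replicate 2 there were 5 mitosis calls and 1 replication call. In BM recipients 13 of 17 replication genes and 11 of 21 mitosis genes were higher in SI and 0 were lower, beside 13.1% and 14.0% of all genes. The median log2 fold change of SI over LI was 0.047 for replication and 0.24 for mitosis in BMT recipients, and 1.01 for replication and 0.50 for mitosis in BM recipients. Cdc6 stood at -0.033 ± 0.18, edgeR adjusted p = 0.938 in BMT recipients and at 1.37 ± 0.18, edgeR adjusted p = 4.08e-05 in BM recipients. Mcm6 stood at 0.22 ± 0.14, edgeR adjusted p = 0.316 in BMT recipients and at 1.15 ± 0.14, edgeR adjusted p = 2.23e-05 in BM recipients. Uhrf1 stood at -0.011 ± 0.17, edgeR adjusted p = 0.989 in BMT recipients and at 1.21 ± 0.17, edgeR adjusted p = 6.46e-05 in BM recipients. In CPM, Uhrf1 had 166, 158 and 87.3 CPM in BMT recipients, against 109, 138 and 155 CPM in BM recipients for code SI. For code LI it had 144, 158 and 112 CPM in BMT recipients, against 64.8, 50.1 and 55.9 CPM in BM recipients, so that the BM libraries of code LI alone stood below the rest. The 13 replication calls in BM recipients were made in every fit that left out a mouse, while the mitosis calls numbered 7 without BM replicate 1 and 4 without BM replicate 2.

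**Figure D4:**
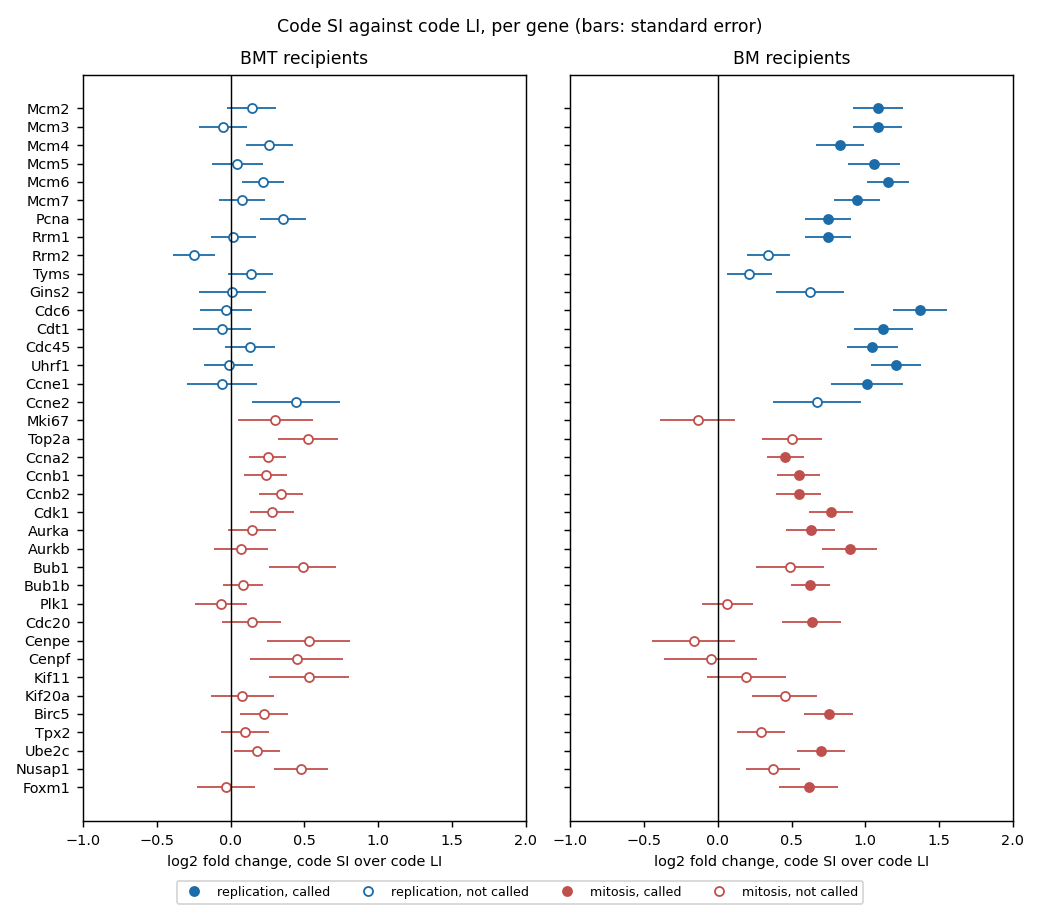
Log2 fold change of code SI over code LI with its standard error for each of the 38 genes, in BMT recipients (left) and BM recipients (right), with filled points for genes called at an edgeR adjusted p under 0.05. No gene is called in BMT recipients, and 13 replication and 11 mitosis genes are called in BM recipients.

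Other genes of both programmes were counted by class and tissue. Beside them, the shares of all genes called higher and lower were 7.46 and 3.35% in LIV, 11.6 and 11.8% in SI, and 20.4 and 21% in LI. Of 48 other replication genes (polymerases, origin recognition and clamp loader subunits and others), 45 were tested in LIV, where 3 were higher and 3 lower with a median log2 fold change of -0.054. In SI 48 were tested, where 1 was higher and 0 lower with a median of 0.14. In LI 48 were tested, where 33 were higher and 1 lower with a median of 0.74. Of 58 other mitosis genes, 49 were tested in LIV, where 19 were higher and 0 lower with a median of 1.45. In SI 58 were tested, where 24 were higher and 0 lower with a median of 0.64. In LI 58 were tested, where 38 were higher and 0 lower with a median of 0.90. In the liver Clspn, an adaptor of the replication checkpoint, averaged 1.24 ± 0.182 CPM in BMT and 0.199 ± 0.0539 CPM in BM livers (SD, n = 3 each, log2 fold change 2.79 ± 0.36, edgeR adjusted p = 0.00395), and Asf1b, a histone chaperone, averaged 2.69 ± 0.275 CPM in BMT and 0.538 ± 0.348 CPM in BM livers (log2 fold change 2.52 ± 0.39, edgeR adjusted p = 0.0076). Rfc3, of the clamp loader, was lower, at 3.47 ± 0.398 CPM in BMT and 7.96 ± 1.02 CPM in BM livers (log2 fold change -1.02 ± 0.17, edgeR adjusted p = 0.00905), and so was Orc5, of the origin recognition complex, at 10.00 ± 1.05 CPM in BMT and 19.3 ± 2.14 CPM in BM livers (log2 fold change -0.78 ± 0.16, edgeR adjusted p = 0.0216). The mitotic kinesin Kif15 averaged 2.21 ± 0.520 CPM in BMT and 0.246 ± 0.152 CPM in BM livers (log2 fold change 3.35 ± 0.43, edgeR adjusted p = 0.0041) and the phosphatase Cdc25b, an activator of Cdk1, 2.91 ± 0.202 CPM in BMT and 0.658 ± 0.269 CPM in BM livers (log2 fold change 2.33 ± 0.32, edgeR adjusted p = 0.00527). In code SI, Dbf4, which activates the kinase Cdc7 at origins, averaged 38.3 ± 12.4 CPM in BMT and 24.0 ± 2.24 CPM in BM recipients (log2 fold change 0.71 ± 0.21, edgeR adjusted p = 0.0328). The mitosis genes Prc1 and Hmmr, of the spindle, averaged 66.0 ± 20.6 CPM in BMT and 33.6 ± 4.38 CPM in BM recipients (log2 fold change 1.02 ± 0.20, edgeR adjusted p = 0.00469) and 49.1 ± 24.0 CPM in BMT and 19.0 ± 1.76 CPM in BM recipients (log2 fold change 1.41 ± 0.27, edgeR adjusted p = 0.00384). In code LI, Mybl2, which encodes B-Myb, averaged 52.9 ± 10.8 CPM in BMT and 10.4 ± 1.98 CPM in BM recipients (log2 fold change 2.35 ± 0.18, edgeR adjusted p = 5.05e-06), and Cdca8, of the passenger complex, 65.6 ± 6.54 CPM in BMT and 28.7 ± 1.91 CPM in BM recipients (log2 fold change 1.20 ± 0.12, edgeR adjusted p = 3.06e-05). Asf1b averaged 50.5 ± 7.40 CPM in BMT and 18.1 ± 2.10 CPM in BM recipients (log2 fold change 1.49 ± 0.15, edgeR adjusted p = 2.52e-05) and Chaf1a, of a histone chaperone, 46.5 ± 7.88 CPM in BMT and 17.3 ± 2.03 CPM in BM recipients (log2 fold change 1.44 ± 0.15, edgeR adjusted p = 4.08e-05), whereas Orc3 was lower, at 22.4 ± 6.02 CPM in BMT and 34.0 ± 2.03 CPM in BM recipients (log2 fold change -0.61 ± 0.18, edgeR adjusted p = 0.0195).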

How the data were processed

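The deposited table holds raw whole-number counts of each gene for the 18 libraries, without normalization by the authors. Per the labels' protocols, polyA-selected RNA went through a stranded library kit and was read as paired ends. Per the submitters' processing notes, the tools were STAR 2.7.0e, featureCounts 1.6.3 and FastQC 0.11.9, with GRCm38.p5 as build. The sources used here give neither the annotation nor whether counting used strand. Reads of 13 members that overlap a gene on the opposite strand may therefore be shared with it, and 4 members have named pseudogene copies (Pcna, Tyms, Ccnb1 and Ccnb2), where reads may be lost or split. Symbols were matched by gene ID for 53274 of 53379 IDs with a GENCODE table, and the 105 others held at most 0.00375% of a library's counts. The members and lists were chosen with earlier results of these data known.

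CPM were computed over all counted genes. For each tissue the deposited counts went into a fit of their own (edgeR 4.0.16, R 4.3.3; filterByExpr by group, TMM), with two-sided quasi-likelihood tests adjusted over all genes tested. Dividing a log2 fold change by the square root of F gave its standard error. Differences between tissues came from 1 model of 18 libraries, whose terms were mouse, tissue and the treatment in each tissue. That pairing rests on the library descriptions, whose numbers recur in each tissue; same-numbered libraries had correlations of -0.039 to 0.19 in their deviations from group means. Class means used log2(CPM + 1) and the alternatives included DESeq2 1.42.0, limma 3.58.1 with the mouse as a random block, another scaling and filter, lane 2 alone (14 of 18 libraries, lanes being read from the column names) and each library left out. No pair of replicates agreed within sampling noise (chi-square per degree of freedom 8.97 to 168). Promoters came from RefSeq.

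Genes with values per library were chosen by rule: per tissue, the 3 replication and 5 mitosis members with the smallest p among those called, the members of each class with the highest and lowest fold change, 10 members in every tissue (Mki67, Top2a, Pcna, Mcm2, Mcm5, Ccnb1, Cdk1, Foxm1, Ccne1 and Ccne2), up to 4 by p per difference between tissues, up to 3 by p for SI against LI, and up to 2 per direction and tissue of each other list. Further members, such as Cdc6 and Tyms in the liver and Uhrf1 in the intestine, were named after their values were seen. On simulated counts, genes changed 1.5-fold, 2-fold and 4-fold were recovered at 1.52, 33.3 and 92.4% in LIV (5 false calls of 14149 genes), 7.81, 56.2 and 95.4% in SI (10 of 14598) and 13.6, 61.3 and 96.9% in LI (4 of 14832). Differences of 2-fold and 4-fold were recovered at 12 and 63% between LIV and SI and at 8 and 63% between LIV and LI (5 and 3 false calls of 17185 genes).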

Additional observations from a re-analysis of the deposited data

Results flagged for a closer look

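The BMT effect on a member differed between tissues by the test of the difference itself, in the edgeR model of 18 libraries (log2 scale, first tissue minus second). Between LIV and SI the effect was higher in LIV for Bub1b by 2.40, Plk1 by 2.05, Aurkb by 2.04, Mki67 by 1.99, Mcm6 by 1.95, Cdc6 by 1.88, Bub1 by 1.78, Foxm1 by 1.64, Uhrf1 by 1.64, Ccnb2 by 1.63, Tpx2 by 1.59, Ube2c by 1.52, Nusap1 by 1.42, Top2a by 1.41, Cdk1 by 1.30, Birc5 by 1.28 and Ccna2 by 1.25.

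Between LIV and LI it was higher in LIV for Mki67 by 2.43, Cenpe by 2.12, Plk1 by 1.92, Bub1b by 1.85, Bub1 by 1.78, Kif11 by 1.55, Nusap1 by 1.52, Ccnb2 by 1.43, Top2a by 1.43, Tpx2 by 1.40, Aurkb by 1.22, Ccna2 by 1.04, Mcm6 by 1.02, Ube2c by 1.00 and Cdk1 by 0.82. The difference was -1.46 for Gins2, -0.91 for Rrm1, -0.83 for Pcna, -0.79 for Mcm3 and -0.75 for Mcm7, all 5 of them replication genes.

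Between SI and LI the difference was -1.40 for Cdc6, -1.22 for Uhrf1, -1.18 for Cdt1, -1.14 for Mcm3, -1.01 for Mcm5, -0.94 for Mcm2, -0.93 for Mcm6, -0.91 for Cdc45 and -0.87 for Mcm7. With 3 libraries per group, single libraries were not tested as outliers.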

How the results depend on the processing

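Of 1407 alternatives run for 99 results of single genes, 1274 kept the direction and the side of the threshold, 105 lost a call, 23 gained one and 5 changed sign. Sign changes were Cdc6 in SI (-0.18 to 0.11 when leaving out a library, with 0.032 without BM replicate 3 and 0.11 without BMT replicate 3), Cenpf in LI (-0.024 to 0.55, lowest without BMT replicate 1) and Gins2 in LIV (-0.51 to 0.20, highest without BM replicate 3, and 0.26 with lane 2 only); none of these had been called. The class means in the liver moved with the scale: with log2(CPM + 0.1), BMT minus BM was 0.55 for replication, 1.77 for mitosis and 1.22 for their difference, and with TMM-scaled CPM it was 0.60 for replication and 1.34 for mitosis, against 0.39, 1.06 and 0.67 as reported. With only lane 2, LIV had 3 replication and 11 mitosis calls. Leaving out a library gave 2 to 6 replication and 7 to 19 mitosis calls in LIV and 1 to 9 and 3 to 18 in SI. For SI against LI it gave 4 to 12 mitosis calls in BM recipients, and 0 to 1 replication and 0 to 5 mitosis calls in BMT recipients. The replication genes with a lower BMT effect numbered 0 to 4 for LIV against LI and 0 to 9 for SI against LI, and the mitosis genes with a higher effect in LIV than in LI 8 to 13; fewer libraries enter each of these fits. Without the low-count filter 1 mitosis gene differed between SI and LI in BMT recipients, and 1 had a lower BMT effect in SI than in LI. Without the replicate block (mouse), 3 replication genes had a lower effect in LIV than in LI; no other count of calls moved by over 1.5 times. Libraries with the same title number within a tissue had correlations of -0.12 to 0.24. Those with the same description number across tissues had -0.039 to 0.19, so that this measure does not tell the pairings apart. A replicate block on the title numbers gave 4, 2 and 15 replication calls and 20, 12 and 16 mitosis calls in LIV, SI and LI. In the livers depth limits single genes, since 3 counts were up to 0.142 CPM there.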

Other observations

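Genes of the G1 phase and inhibitors of the cycle were counted in the same fits, where 7.46% of all genes were called higher and 3.35% lower in LIV, 11.6 and 11.8% in SI, and 20.4 and 21% in LI. Of 20 G1 cyclins, kinases and E2F factors, 1 of 17 tested was higher and 0 lower in LIV, 1 was higher and 2 lower of 20 in SI, and 12 were higher and 1 lower of 19 in LI, with median log2 fold changes of -0.0030, -0.0070 and 0.63. In the liver Cdc25a, the phosphatase that activates Cdk2, averaged 14.2 ± 1.57 CPM in BMT and 7.03 ± 1.13 CPM in BM recipients (SD, n = 3 each, log2 fold change 1.19 ± 0.18, edgeR adjusted p = 0.00703). In code SI the D-type cyclin Ccnd3 averaged 40.2 ± 2.27 CPM in BMT and 28.7 ± 6.08 CPM in BM recipients (log2 fold change 0.53 ± 0.17, edgeR adjusted p = 0.046), a call lost under 5 of the alternatives other than leaving out a library. Its kinase Cdk6 averaged 26.7 ± 2.01 CPM in BMT and 47.1 ± 7.37 CPM in BM recipients (log2 fold change -0.77 ± 0.16, edgeR adjusted p = 0.00592). Mycn was near the floor, at 0.161 ± 0.102 CPM in BMT and 0.641 ± 0.112 CPM in BM recipients (log2 fold change -1.86 ± 0.53, edgeR adjusted p = 0.0265). In code LI, E2f2 averaged 81.9 ± 7.87 CPM in BMT and 36.3 ± 4.12 CPM in BM recipients (log2 fold change 1.19 ± 0.14, edgeR adjusted p = 7.05e-05) and Ccnd2 239 ± 47.2 CPM in BMT and 126 ± 9.40 CPM in BM recipients (log2 fold change 0.93 ± 0.14, edgeR adjusted p = 0.000496), while Tfdp2, a partner of E2F factors, was lower at 31.3 ± 6.08 CPM in BMT and 61.5 ± 1.30 CPM in BM recipients (log2 fold change -0.97 ± 0.14, edgeR adjusted p = 0.000334).

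Of 20 inhibitors, 2 were higher and 2 lower of 16 tested in LIV, 4 higher and 1 lower of 19 in SI, and 6 higher and 6 lower of 19 in LI, beside the same shares of all genes. The antiproliferative gene Btg2 was lower in both intestinal sets, at 193 ± 30.7 CPM in BMT and 523 ± 38.8 CPM in BM recipients for code SI (log2 fold change -1.38 ± 0.17, edgeR adjusted p = 0.000235) and 272 ± 15.8 CPM in BMT and 723 ± 59.4 CPM in BM recipients for code LI (log2 fold change -1.40 ± 0.13, edgeR adjusted p = 1.24e-05). The kinase inhibitor Cdkn2d was higher in LIV (log2 fold change 1.38 ± 0.31, edgeR adjusted p = 0.03), SI (log2 fold change 0.83 ± 0.21, edgeR adjusted p = 0.0146) and LI (log2 fold change 0.97 ± 0.16, edgeR adjusted p = 0.000779). Cdkn2c, of the same family, was higher in LIV (log2 fold change 1.24 ± 0.28, edgeR adjusted p = 0.0302). Ccng2 was higher in SI (log2 fold change 1.13 ± 0.26, edgeR adjusted p = 0.00895) and LI (log2 fold change 0.73 ± 0.14, edgeR adjusted p = 0.00173). Cdkn1b, which encodes p27, was lower in LI, at 45.1 ± 5.18 CPM in BMT and 81.5 ± 4.49 CPM in BM recipients (log2 fold change -0.85 ± 0.12, edgeR adjusted p = 0.00034). In the liver Ccng1, a target of p53, was lower, at 64.8 ± 7.39 CPM in BMT and 136 ± 20.6 CPM in BM recipients (log2 fold change -0.90 ± 0.16, edgeR adjusted p = 0.0135), and so was Wee1, the kinase that restrains Cdk1, at 5.63 ± 2.60 CPM in BMT and 14.0 ± 2.84 CPM in BM recipients (log2 fold change -1.17 ± 0.30, edgeR adjusted p = 0.0466).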
